A study of Rattus norvegicus with 6 samples.

Results

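The genes described here are 10 contractile and pericyte genes of renal vessels and mesangium, measured in whole kidneys of Dahl S and congenic rats. They were taken as every probe set that the array annotation maps to exactly 1 of the 10 gene symbols, which gave 13 of the 31042 probe sets tested. A probe set is a group of short probes on the array that reads 1 or more transcripts. Myh11 had 2 probe sets, Pdgfrb had 3, and Acta2, Tagln, Cnn1, Des, Myl9, Rgs5, Pdgfra and Cspg4 had 1 each. Of the 13 probe sets, 12 had a mean intensity at or above the percentile 40 of all probe sets. The dimmer probe set of Myh11 lay at the percentile 10.6.

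Kidney RNA of 6 male rats was measured, with 1 Affymetrix Rat Expression Array 230 2.0 for each rat and 3 rats per group. The controls were Dahl salt-sensitive (S) rats, an inbred strain that becomes hypertensive on salt. The other group was the congenic strain S.LEW(10)x12x2x3x5, which has the S background and a stretch of chromosome 10 from the Lewis rat. Both groups were weaned at 30 days, kept on chow with 0.3% salt, caged as 1 S and 1 congenic rat together, and killed at 53 days. Only 1 congenic strain was measured, and the RNA came from whole tissue, so fewer cells of a type and less RNA per cell cannot be told apart. The study concerns protein leak into urine and endosomal recycling in the proximal tubule, and the comparison made here is congenic against S.

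Smooth muscle of renal arteries and arterioles contracts when a myosin motor, built from the heavy chain Myh11 and light chains such as Myl9, pulls on filaments of the actin Acta2. Calponin (Cnn1) and transgelin (Tagln) bind those filaments, and desmin (Des) forms intermediate filaments that tie the contractile apparatus together. Pericytes wrap capillaries, and both pericytes and mesangial cells are kept by platelet-derived growth factor (PDGF) acting on the receptor Pdgfrb. The related receptor Pdgfra is found mainly on interstitial fibroblasts, Rgs5 shortens signals of G proteins in mural cells, and Cspg4 encodes the surface proteoglycan NG2. Many smooth muscle genes are controlled by serum response factor, which binds CArG boxes, and by TEAD factors, which bind MCAT elements.

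Promoter sequence is shown for Acta2, Cnn1 and Des, whose levels varied together from rat to rat, and for Pdgfra, which ran the other way within the S group. Each run is the 250 bases before the annotated start, 5′ to 3′, from RefSeq in the build GRCr8. The table used held promoters of 6 of the 10 genes. Capitals mark a CArG-like box (a CArG box in which 1 of the 6 central letters, all A or T in the strict form, is G or C) or an MCAT element (CATTCC on either strand).
Acta2, chr1:241172504-241172753, minus strand: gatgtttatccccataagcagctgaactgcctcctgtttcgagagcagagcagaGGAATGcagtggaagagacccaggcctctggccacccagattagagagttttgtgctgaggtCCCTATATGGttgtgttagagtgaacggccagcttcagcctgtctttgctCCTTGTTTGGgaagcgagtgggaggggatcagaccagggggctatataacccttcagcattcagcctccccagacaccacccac
Cnn1, chr8:28908187-28908436, plus strand: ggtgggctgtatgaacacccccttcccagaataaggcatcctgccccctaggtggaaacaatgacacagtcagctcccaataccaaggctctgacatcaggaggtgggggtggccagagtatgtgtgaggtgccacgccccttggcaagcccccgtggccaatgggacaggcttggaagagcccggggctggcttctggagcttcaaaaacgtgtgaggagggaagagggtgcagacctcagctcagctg
Des, chr9:84299376-84299625, plus strand: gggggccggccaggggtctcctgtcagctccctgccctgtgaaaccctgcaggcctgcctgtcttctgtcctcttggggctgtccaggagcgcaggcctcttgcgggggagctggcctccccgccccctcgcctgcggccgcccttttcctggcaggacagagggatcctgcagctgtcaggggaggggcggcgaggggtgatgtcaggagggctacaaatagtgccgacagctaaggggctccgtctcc
Pdgfra, chr14:33408517-33408766, minus strand: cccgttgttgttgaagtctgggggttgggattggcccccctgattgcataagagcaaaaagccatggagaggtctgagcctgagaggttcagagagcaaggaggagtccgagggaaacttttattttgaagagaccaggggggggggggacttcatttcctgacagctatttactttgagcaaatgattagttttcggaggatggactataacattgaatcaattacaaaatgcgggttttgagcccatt
The Acta2 promoter held 2 CArG-like boxes, CCCTATATGG from 134 to 125 bases and CCTTGTTTGG from 84 to 75 bases before the start, and an MCAT element from 196 to 191 bases before it. The motifs do not overlap each other. No CArG-like box or MCAT element was found in the windows of the other 5 genes, and no strict CArG box in any of the 6. Of 33469 promoters of the same length, 6.84% held a CArG-like box, 1.5% a CArG box and 12.1% an MCAT element, both strands searched. These matches describe letters only.

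None of the 13 probe sets passed the test in either direction (limma, Benjamini-Hochberg adjusted p from 0.0540 to 0.98), beside 6.00% of all probe sets that passed, 3.47% higher and 2.53% lower. An unadjusted p under 0.05 was reached by 3 of the 13, those of Acta2, Tagln and Des, beside 25.4% of all probe sets. An unmoderated test called 0 of the 13 and 0 of all. Acta2, Tagln, Des, Myh11 and Cnn1 had estimates from 0.33 to 0.57 on the log2 scale (congenic minus S) at their brightest probe sets, the light chain Myl9 stood at 0.09, and the other 4 genes lay between -0.10 and 0.04. The median over the 10 genes was 0.21, beside -0.03 over the 14217 genes measured. The groups did not overlap for Tagln and Myl9, both higher in congenic rats, which is 2 of 13 beside 31.2% of all probe sets (12.7% higher and 18.4% lower). All levels below are log2 intensities, which compare rats for 1 probe set and do not rank genes against each other.

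**Figure D1:**
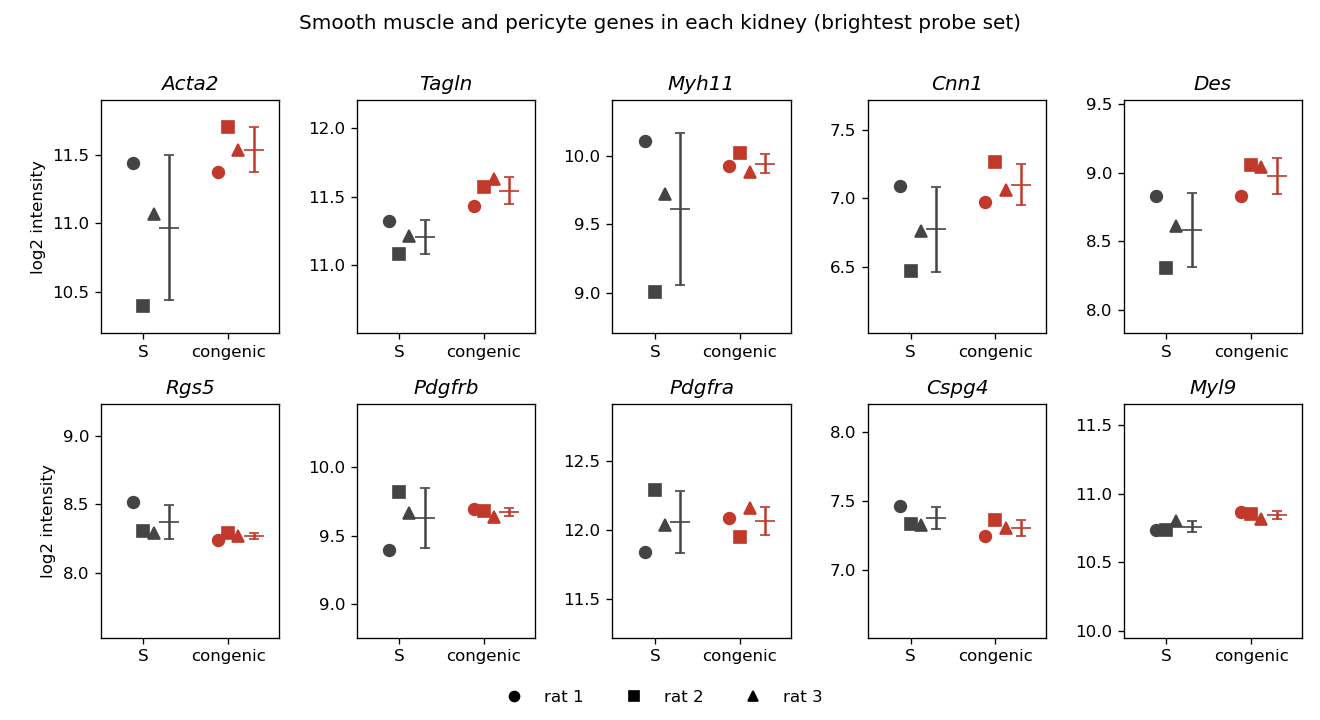
Log2 intensity of the brightest probe set of each of the 10 genes in the 3 S rats (grey) and 3 congenic rats (red). The symbol gives the rat number within its group, the bars beside the points are mean ± SD, and every panel spans the same log2 height. S rat 2 is the lowest kidney for Acta2, Tagln, Myh11, Cnn1 and Des and the highest for Pdgfra and Pdgfrb.

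Acta2, the actin of smooth muscle, read 11.44, 10.39 and 11.07 in S rats 1, 2 and 3 and 11.37, 11.70 and 11.53 in congenic rats 1, 2 and 3. S rat 1 lay within the congenic range and S rat 2 lay far below all other kidneys. The means were 10.97 ± 0.53 in S and 11.54 ± 0.16 in congenic rats (SD, n = 3), a difference of 0.57 ± 0.23 (SE) or 1.48-fold with a 95% interval of 1.03 to 2.12 (adjusted p = 0.16). Beyond this probe set, 5 probe sets map to both Acta2 and the heart actin Actc1 and so were not counted here. Of those, 1 was higher by 0.46 (adjusted p = 0.0376) and the other 4 stood between -0.08 and 0.20 and did not pass.

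Myh11, the myosin heavy chain of smooth muscle, lies on chromosome 10, the chromosome that carries the Lewis segment. The limits of that segment were not placed here. Its brighter probe set read 10.10, 9.01 and 9.72 in the S rats and 9.93, 10.02 and 9.88 in the congenic rats. The S kidneys spanned 1.10 and the congenic kidneys 0.14, and S rat 1 was the highest of all 6. The difference of 0.33 ± 0.23 (SE) was therefore small beside the S spread (SD 0.56 in S and 0.07 in congenic rats, n = 3, adjusted p = 0.42). The dimmer probe set read between 4.99 and 5.11 in all 6 kidneys, with a difference of 0.04 (adjusted p = 0.75).

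Myl9, the regulatory light chain of that motor, was the steadiest of the contractile genes. It read 10.74, 10.74 and 10.80 in S rats and 10.87, 10.85 and 10.82 in congenic rats. The groups did not overlap, but by a margin far smaller than the S spread of Acta2. The difference was 0.09 ± 0.06 (SE), with a 95% interval of -0.05 to 0.23 (adjusted p = 0.43).

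Tagln, the actin-bundling transgelin, came nearest to the threshold. It read 11.33, 11.08 and 11.21 in S rats and 11.44, 11.57 and 11.63 in congenic rats, so that every congenic kidney lay above every S kidney. The means were 11.21 ± 0.12 and 11.54 ± 0.10 (SD, n = 3), a difference of 0.34 ± 0.08 (SE) or 1.26-fold (95% interval 1.10 to 1.44, adjusted p = 0.0540). The adjusted p lay under the threshold with dim probe sets left out (0.0464) and with an intensity trend in the prior (0.0300). Those fits called 10.6% and 8.58% of all probe sets. Over 15 alternative settings Tagln passed in 4, with adjusted p from 0.00797 to 0.99.

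Cnn1, which encodes calponin, a brake on the myosin motor, read 7.09, 6.47 and 6.76 in S rats and 6.98, 7.26 and 7.06 in congenic rats. S rat 1 again lay among the congenic kidneys. The difference was 0.33 ± 0.15 (SE, adjusted p = 0.21). Des, the intermediate filament of muscle that mesangial cells also carry, read 8.83, 8.30 and 8.61 in S rats and 8.83, 9.06 and 9.04 in congenic rats. Congenic rat 1 and S rat 1 were level at 2 decimals, and the other kidneys of the groups stood apart. The difference was 0.39 ± 0.13 (SE) or 1.31-fold (95% interval 1.07 to 1.62, adjusted p = 0.10).

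The PDGF receptors had estimates near 0 at their brightest probe sets. Pdgfrb, the receptor of pericytes and mesangial cells, read 9.40, 9.82 and 9.67 in S rats and 9.70, 9.68 and 9.64 in congenic rats at its brightest probe set. All 3 congenic values lay inside the S range, and the difference was 0.04 ± 0.10 (SE, adjusted p = 0.85), with a 95% interval on the fold scale of 0.874 to 1.22. A second probe set, dimmer, followed the same order among the S rats, at 7.50, 7.95 and 7.62, against 7.75, 7.82 and 7.75 in congenic rats (difference 0.08, adjusted p = 0.71). The remaining probe set did not: it read 7.75, 7.79 and 7.90 in S rats and 7.84, 8.12 and 7.98 in congenic rats (difference 0.17, adjusted p = 0.27).

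Pdgfra, the receptor of interstitial fibroblasts, read 11.84, 12.29 and 12.04 in S rats and 12.09, 11.95 and 12.16 in congenic rats. The congenic kidneys lay inside the S range here too. The difference was 0.01 ± 0.12 (SE), with a 95% interval of -0.25 to 0.27 (adjusted p = 0.98), and its sign turned under quantile normalization and under median centring.

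Rgs5 and Cspg4, pericyte genes of the set as Pdgfrb is, were the only members with estimates below 0. Rgs5 read 8.52, 8.31 and 8.29 in S rats and 8.24, 8.29 and 8.27 in congenic rats. S rat 1 stood above the rest, and S rat 3 lay level with congenic rat 2 at 2 decimals. The difference was -0.10 ± 0.08 (SE, adjusted p = 0.46). Cspg4 read 7.47, 7.33 and 7.32 in S rats and 7.25, 7.36 and 7.31 in congenic rats, with S rat 1 again the highest. The difference was -0.07 ± 0.07 (SE, adjusted p = 0.60).

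The members varied more among S kidneys than among congenic kidneys. The SD was larger in S for 11 of 13 probe sets, beside 64.2% of all probe sets, and the median SD of the members was 0.22 in S and 0.07 in congenic rats, against 0.10 and 0.08 over all probe sets. The 3 S rats took opposite orders in the 2 kinds of gene. All 6 probe sets of Acta2, Tagln, Myh11, Cnn1 and Des were highest in S rat 1, then S rat 3, then S rat 2, an order that 18.9% of all probe sets had. Pdgfra and 2 of the 3 probe sets of Pdgfrb had the reverse order, as did 24.9% of all. S rat 2 was the lowest of all 6 kidneys in 6 of the 13 probe sets, beside 22.8% of all, and the highest in 3, beside 32.5% of all. Across the 6 arrays, the 10 pairs among Acta2, Tagln, Myh11, Cnn1 and Des had Pearson's r from 0.72 to 0.98, and from 0.76 to 0.97 once each group's mean was taken away. The same genes against Pdgfra and the brightest probe set of Pdgfrb gave r from -0.83 to -0.24, and from -0.96 to -0.67 with group means taken away. The other probe sets of Pdgfrb did not share one sign: the one in the S order of the brightest gave r from -0.68 to -0.07, and the remaining one r from 0.33 to 0.70. Rgs5 and Cspg4 had r = 0.93. These values are descriptions over 6 arrays and lean on single kidneys. S rat 2 is an extreme for Acta2, Tagln, Myh11, Cnn1, Des, Pdgfra and the brightest probe set of Pdgfrb. S rat 1 is the highest for Rgs5 and Cspg4. The split of the genes was made after their values were seen.

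High correlation with a member was not rare. Of 10859 other genes above the brightness minimum, 4.56% had r of at least 0.9 with Acta2 and 13.4% had r of -0.9 or below. The genes most like Acta2 were Ccdc32, Sipa1l3, Pwp2, Mapre2 and Golga7 (r from 0.989 to 0.995), those most like Myh11 were Zfp664, Tox3, Aif1l, Srpk2 and Defb1 (r from 0.993 to 0.998), and those most like Pdgfrb were LOC102554082, Esm1, Cmtm7, Hoxa10 and Tmem229b (r from 0.965 to 0.977). None of these 15 passed the test between the groups, and no member was among them.

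Among the S rats, a measure of RNA quality and several nephron markers followed the order of Acta2 or its reverse. The 3′ minus 5′ difference of the beta-actin and Gapdh control probe sets, which is larger where RNA is degraded, was 1.56, 2.10 and 1.70 in S rats 1, 2 and 3 and 1.26, 1.01 and 1.08 in congenic rats (two-sided exact permutation test, p = 0.1, a floor set by 3 rats per group). S rat 2, lowest for Acta2 and its companions, had the largest value. S rat 1 lay above every congenic rat on this measure. That kidney was the highest of all 6 for Myh11 and lay within the congenic range for Acta2. Nphs1, which encodes the podocyte protein nephrin, read 8.87, 5.67 and 6.90 in S rats and 8.47, 8.29 and 8.27 in congenic rats, the S order of Acta2 with a wider spread. Wt1, Calb1 and Slc12a3, markers of podocytes and of the distal tubule, had that order as well. In them S rat 2 stood at 5.05, 9.38 and 9.50 and every other kidney at 6.89, 12.73 and 11.73 or above. S rat 1 was the highest of all 6 for Nphs1, Wt1 and Slc12a3. Synpo, Podxl, Slc34a1 and Atp6v1b1 also had that S order. Other podocyte and nephron markers did not. Ptpro was lowest in S rat 3, at 7.41, with S rat 2 close to it at 7.44. For Ptpro S rat 1 read 8.90 and the congenic rats 9.03, 8.85 and 8.71. Cd2ap, Lrp2 and Kap were highest in S rat 2, and Slc12a1 and Aqp2 in S rat 3. Umod, the thick ascending limb marker, stayed between 14.62 and 14.76 in all 6. It read close to the highest values of the arrays, which lay between 15.11 and 15.14. The part of RNA quality in the members' values was not tested beyond the fits that follow.

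**Figure D2:**
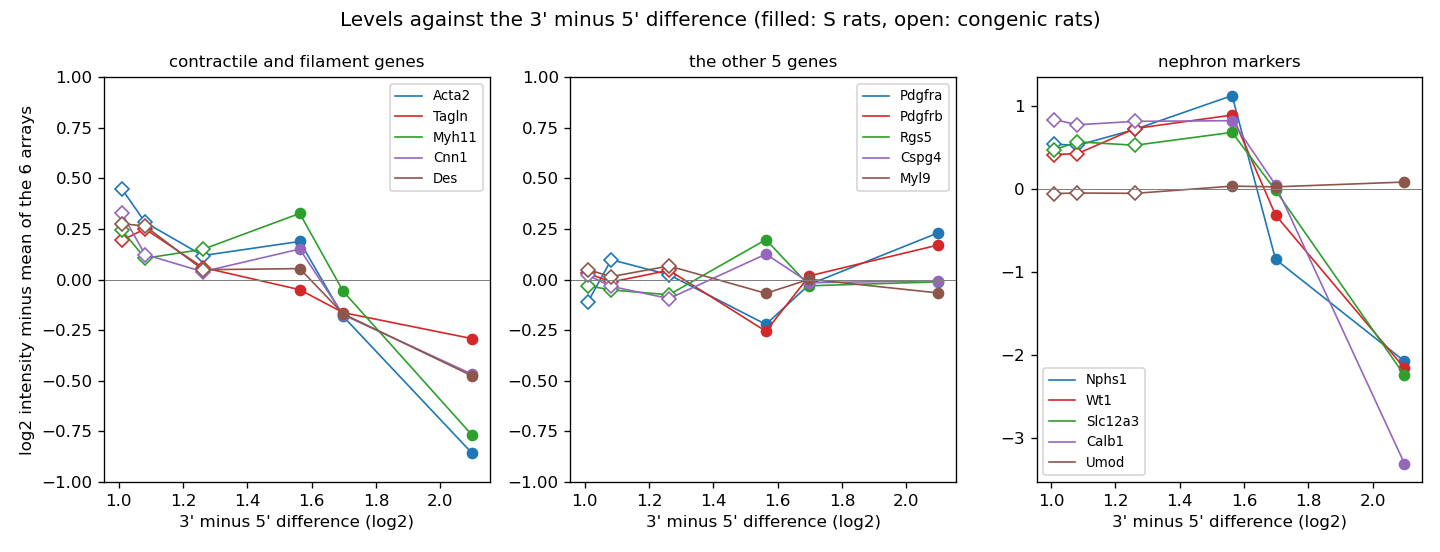
Log2 intensity of each gene minus its mean over the 6 arrays, against the 3′ minus 5′ difference of each array, for the filament and contractile genes (left), the other 5 members (middle) and nephron markers (right, on a wider vertical scale). Filled circles are S rats and open diamonds congenic rats. S rat 2, at 2.10 on the horizontal axis, is lowest for all 5 genes on the left and for Nphs1, Wt1, Slc12a3 and Calb1, and highest for Pdgfra and Pdgfrb.

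Without S rat 2 the difference was 0.28 for Acta2, 0.25 for Des, 0.17 for Cnn1 and 0.03 for Myh11, while Tagln kept 0.27. The same step left 0 members called, beside 3.12% of all probe sets. Without S rat 1 the estimates grew to 0.80 for Acta2 (adjusted p = 0.0206), 0.40 for Tagln (adjusted p = 0.0185), 0.52 for Des (adjusted p = 0.0178), 0.48 for Cnn1 (adjusted p = 0.0256) and 0.58 for Myh11 (adjusted p = 0.0575), so that 4 of 13 passed, beside 15.3% of all probe sets in that fit. With array weights, Acta2 (0.49, adjusted p = 0.0392), Tagln (0.36, adjusted p = 0.00797) and Des (0.39, adjusted p = 0.0169) passed, beside 19.6% of all. With the 3′ minus 5′ difference as a term, the estimates turned to -0.62 ± 0.15 (SE) for Acta2, -0.79 ± 0.23 for Myh11, -0.38 ± 0.15 for Cnn1 and -0.24 ± 0.13 for Des, Tagln stood at 0.03 ± 0.13, and Pdgfra and the brightest probe set of Pdgfrb stood at 0.49 ± 0.16 and 0.44 ± 0.16. None passed there (adjusted p from 0.46 to 0.99), and 0 of all probe sets did. In that fit 6 of the 13 members had an unadjusted p under 0.05, beside 2292 of all 31042 probe sets. They were Acta2, Cnn1, the brighter probe set of Myh11, Pdgfra, and the brightest and another probe set of Pdgfrb. That term itself separates the groups.

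**Figure D3:**
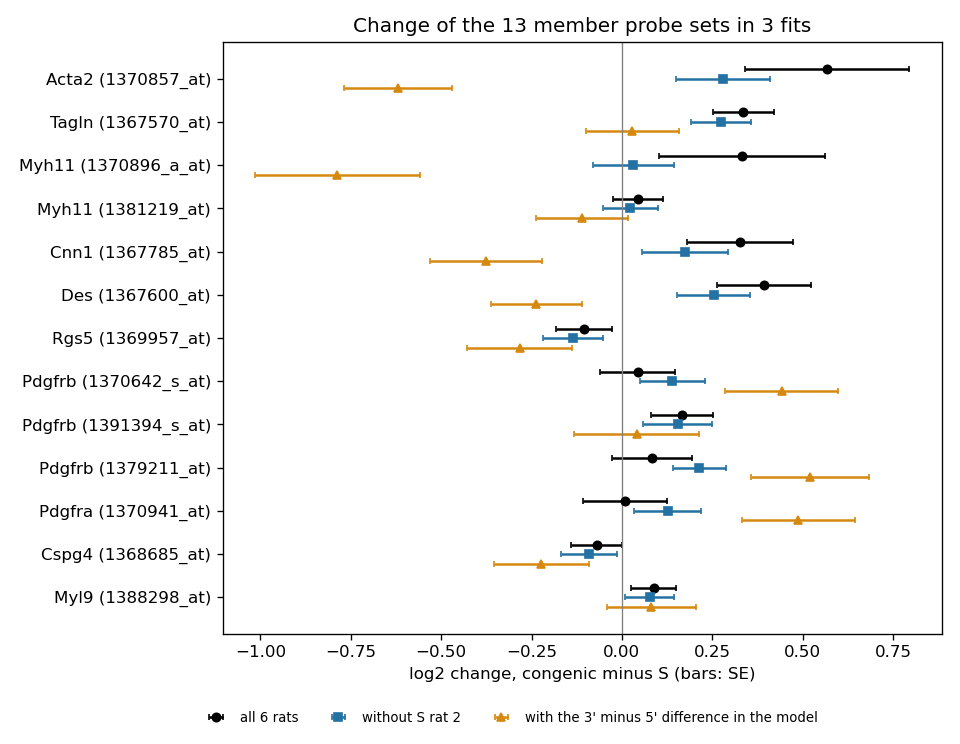
Log2 change (congenic minus S) of the 13 probe sets with SE bars, in all 6 rats (black circles), without S rat 2 (blue squares) and with a term for the 3′ minus 5′ difference (orange triangles). Acta2, Myh11, Cnn1 and Des lie right of 0 in the first fit, nearer to 0 in the second and left of 0 in the third. Pdgfra and the brightest and one other probe set of Pdgfrb move the other way.

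Other genes of the same pathways were taken from lists of smooth muscle, mural, PDGF and paralogous genes, at the brightest probe set of each. Of all 14217 genes 4.79% passed, 2.12% higher and 2.67% lower. Of 31 further contractile and regulatory genes, 1 rose and 0 fell, with a list median of 0.06. The riser was Rock1, a kinase that keeps myosin light chains phosphorylated (0.37 ± 0.08 SE, adjusted p = 0.0412). Its probe set was dim, at the percentile 32.8, and it stood at 0.30 without S rat 2 (adjusted p = 0.0751) and at 0.06 with the 3′ minus 5′ term (adjusted p = 0.97). Actg2, the other actin of smooth muscle, stood at 0.30 (adjusted p = 0.29) and Tpm1, a tropomyosin, at 0.13 (adjusted p = 0.25).

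Of 24 mural and mesangial genes, 4 rose and 0 fell, with a median of 0.11, and 13 had estimates above and 11 below 0. Kcnj8, the pore of the vascular ATP-sensitive potassium channel, read 7.30, 7.43 and 7.35 in S rats and 7.85, 7.63 and 7.79 in congenic rats (0.40 ± 0.08 SE, adjusted p = 0.0331). Gucy1a1, a subunit of the nitric oxide receptor guanylate cyclase, rose by 0.48 ± 0.10 (SE, adjusted p = 0.0366), and its dimmer probe set by 0.63 (adjusted p = 0.0201). In both genes S rat 2 was not the lowest kidney. The others were Ptn, which encodes the growth factor pleiotrophin (0.35, adjusted p = 0.0333), and Heyl, a Notch target of mural cells (0.33, adjusted p = 0.0377), whose dimmer probe set stood at 0.08 (adjusted p = 0.61). Without S rat 2 Kcnj8 (0.43, adjusted p = 0.0376) and Gucy1a1 (0.55, adjusted p = 0.0278) passed, and Ptn and Heyl kept estimates of 0.34 and 0.31 but missed the threshold (adjusted p = 0.0586 and 0.0726). With the 3′ minus 5′ term Kcnj8 stood at 0.62, Gucy1a1 at 0.78, Ptn at 0.35 and Heyl at 0.20, none passing (adjusted p from 0.46 to 0.84). Among the 20 that did not pass, Ebf1, a transcription factor, stood at -0.34 (adjusted p = 0.0521) and Abcc9, the regulatory subunit of the Kcnj8 channel, at -0.34 (adjusted p = 0.30).

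Of 16 measured genes of PDGF signalling, 1 rose and 0 fell, with a median of 0.07. It was Pdgfc, a ligand of Pdgfra, which read 7.21, 6.80 and 6.92 in S rats and 7.56, 7.68 and 7.76 in congenic rats, 1.61-fold higher (0.69 ± 0.11 SE, adjusted p = 0.0223). Plat, the protease that activates it, was at 0.32 (adjusted p = 0.0692). With the 3′ minus 5′ term Pdgfc stood at 0.25 (adjusted p = 0.82).

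Of 25 measured paralogues of the members, 3 rose and 0 fell, with a median of 0.07. Tagln2, the transgelin of non-muscle cells, rose by 0.75 ± 0.17 (SE, 1.69-fold, adjusted p = 0.0415) and stood at -0.09 with the 3′ minus 5′ term. Myh9, a non-muscle myosin heavy chain, rose by 0.34 (adjusted p = 0.0490), with 0.30 under quantile normalization (adjusted p = 0.0523) and 0.03 with the 3′ minus 5′ term. Kit, a receptor kinase of the PDGF receptor family, rose by 0.48 (adjusted p = 0.0413) at a dim probe set. All 9 calls in these lists were absent without S rat 3, congenic rat 2 or congenic rat 3, where limma called 0, 0 and 8 of all 31042 probe sets (6968, 5575 and 5359 at an unadjusted p under 0.05). Their estimates stayed above 0 in those fits, as for Pdgfc at 0.66, 0.68 and 0.64. Kcnj8, Gucy1a1, Pdgfc and Tagln2 passed without S rat 2, and of the 9 Pdgfc alone passed without congenic rat 1.

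**Figure D4:**
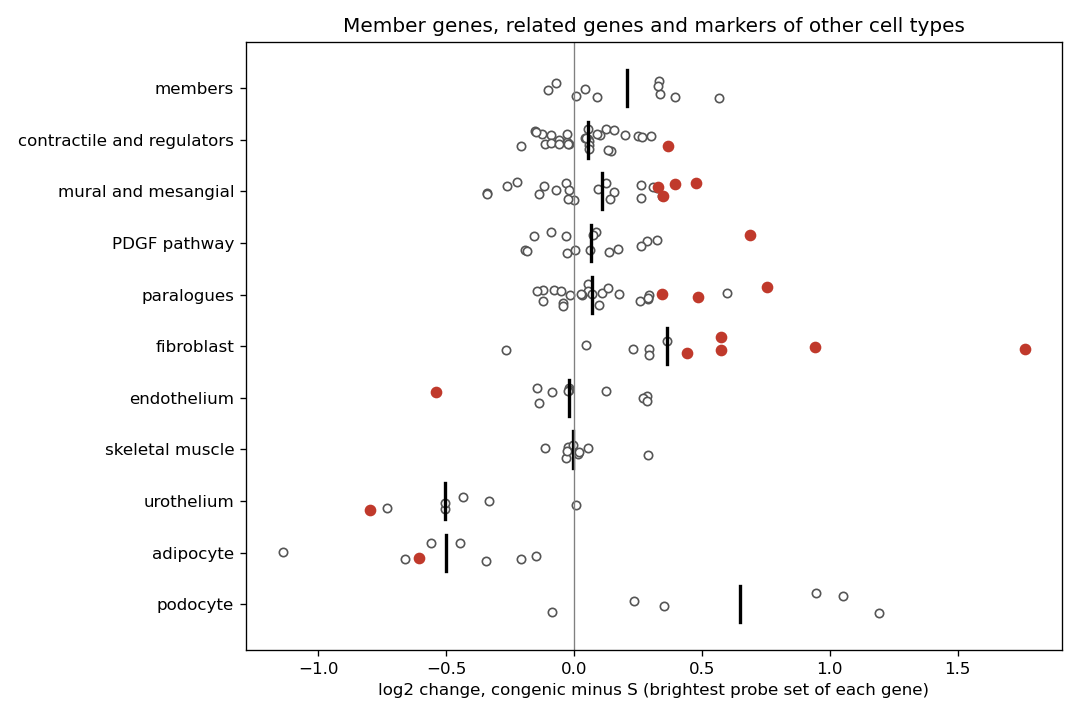
Log2 change (congenic minus S) of each gene's brightest probe set in the member set, the related lists and lists of markers of other cell types. Red points passed an adjusted p of 0.05, open points did not, and black lines are list medians. No member is red, and the members' median is 0.21.

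Markers of other cell types moved in several directions beside the members. Fibroblast markers were mostly higher, with 5 of 11 passing (Lum, Mfap4, Fbln5, Dcn and Col1a1, from 0.44 to 1.76), and their mean level per rat ran from 10.70 to 10.89 in S and from 11.19 to 11.35 in congenic rats. Col3a1 and Fn1, the brightest of that list beside Col1a1, stood at 0.23 and 0.05 and did not pass. The dimmer probe set of Col1a1 stood at 0.30 (adjusted p = 0.0967). Thy1 was the 1 fibroblast marker with an estimate below 0, at -0.27 (adjusted p = 0.22). Of 11 endothelial markers Vwf fell by 0.54 (adjusted p = 0.0235) and 10 did not pass, with a mean level from 9.95 to 10.04 in S and from 9.98 to 10.01 in congenic rats and the brightest of them, Plvap, Emcn and Eng, at -0.03, -0.02 and 0.27 (adjusted p = 0.90, 0.88 and 0.0528). Of 7 urothelial markers Upk1a fell by 0.80 (adjusted p = 0.0341), and the mean level ran from 7.30 to 7.80 in S, highest in S rat 2, and from 7.04 to 7.15 in congenic rats. Psca, Upk3a and Krt5, its brightest markers, stood at -0.73, -0.51 and -0.43 and did not pass.

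Of 8 adipocyte markers Cidec fell by 0.61 (adjusted p = 0.0202), with a mean level from 8.70 to 9.25 in S and from 8.29 to 8.69 in congenic rats. Lpl, Cidec and Fabp4 are its brightest, and Lpl and Fabp4 stood at -0.21 and -0.35 and did not pass. All 8 adipocyte estimates lay below 0, with a list median of -0.50. None of 6 podocyte markers passed, and their mean level ran from 8.41 in S rat 2 to 9.94 in S rat 1 and from 9.65 to 9.82 in congenic rats. Cd2ap, Synpo and Podxl, the brightest of them, stood at -0.09, 0.35 and 0.23. The dimmer Nphs1, Wt1 and Ptpro stood at 1.19, 1.05 and 0.94, and the podocyte list median was 0.65. Skeletal muscle, which also carries Des, gave no call among 9 markers, with a mean level from 6.45 to 6.57 in S and from 6.49 to 6.59 in congenic rats. Myh4 and Myh2 lay between 4.21 and 4.58, while the probe set annotated as Myh1 read 13.63 to 13.87, with Tnni2 and Tnnt3 next. The juxtaglomerular list had 1 measured gene, Akr1b7, at -0.18 (adjusted p = 0.59). None of 10 kidney markers passed, with Kap, Umod and Slc34a1 at -0.03, -0.10 and 0.28. Calb1 and Slc12a3, both lowest in S rat 2, stood at 1.62 and 1.05. The kidney list had 5 estimates above and 5 below 0. With the 3′ minus 5′ term the called fibroblast genes stood from 0.30 to 1.25. Vwf stood at -0.23, Upk1a at -0.04 and Cidec at -0.28 there. No probe set passed in that fit, nor without S rat 3 or congenic rat 2. The part of the listed cell types in the members' values was not tested.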

How the data were processed

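The authors deposited 1 table of log2 probe set intensities for 6 arrays. Per the labels' protocols, biotinylated cRNA was made from Trizol-extracted total RNA, and the design text names Benjamini-Hochberg adjustment in R. The software that summarised and normalised the arrays is not given in the sources used here. Array medians lay between 7.47 and 7.50. Arrays have no read depth, so 3 rats per group limit the precision.

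Affymetrix control probe sets (57) did not enter the tests. Of 31042 tested, 20826 had 1 gene symbol, updated through Entrez identifiers to RefSeq GRCr8 (20758 matched), 436 had several and 9780 were unlisted. Groups came from sample titles. limma 3.58.1 in R 4.3.3 (lmFit, eBayes, two-sided, adjusted p under 0.05 over all probe sets) compared congenic with S, with 4 residual degrees of freedom and 4.49 from the prior. The code was tested on simulated data. The brightest probe set stood for a gene in the related lists, from which up to 3 genes called in each direction were named, and from marker lists the 3 brightest and any called. Genes most like Acta2, Myh11 and Pdgfrb were ranked by Pearson's r. Members and lists were chosen with earlier results of these data known. Heyl (beyond the 3 of its list), Actg2, Tpm1, Plat, Ebf1, Abcc9, Thy1, Ptpro and the nephron markers were named after their values were seen. Alternatives were other scalings, a brightness filter, other variance models, array weights, rat number as a block, the 3′ minus 5′ difference as a term and leaving out each rat. Plots used Python 3.11.15 with matplotlib 3.10.9.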

Additional observations from a re-analysis of the deposited data

How the results depend on the processing

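With 3 rats per group, calls depended on single rats. All probe sets called numbered 1862, from 0 to 4752 with 1 rat left out, 6077 with array weights, 658 with the rat number as a replicate block, and 0 in the unmoderated test and with the 3′ minus 5′ difference as a term. Members called higher numbered 0, beside 6.00% of all probe sets called in either direction. They numbered 1 with dim probe sets dropped (10.6% of all called) or an intensity trend (8.58%), and 3 with array weights (19.6%). With 1 rat left out they numbered 0 to 4, beside 0% to 15.3% of all. None was called lower in any of these. Calls in the related lists numbered 9, and 15 with an intensity trend, 26 with array weights, 1 with the replicate block, 0 in the unmoderated test or with the 3′ minus 5′ term, and 0 to 20 with 1 rat left out. The members' median of 0.21 became -0.23 with the 3′ minus 5′ term. That term also turned Acta2 (-0.62), both Myh11 probe sets (-0.79 and -0.11), Cnn1 (-0.38), Des (-0.24), Tagln2 (-0.092) and Kit (-0.0036). Pdgfra turned to -0.030 under quantile normalization and -0.0054 under median centring, and ran from -0.10 to 0.13 with 1 rat left out, as did Pdgfrb from -0.073 to 0.14 and from -0.013 to 0.21 at its other probe set that turned. The cause of these turns was not tested. Same-numbered rats did not deviate together (r = -0.01, -0.18 and -0.14), so the numbers were not taken as pairs. Other combinations ran from r = -0.25 to 0.38, highest for S rat 3 with congenic rat 2. Which S and congenic rat shared a cage is not given in the labels used here, and no fit used the cage.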
